A study of Mus musculus with 6 samples.

Results

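The genes described here are the histone genes measured in C2C12, a clonal mouse myoblast line that stops dividing and fuses into myotubes when serum is withdrawn. Members were all genes with a symbol starting in H1f, H2ac, H2bc, H3c or H4c (or the older Hist1h to Hist4h) that had a probe set assigned to that gene alone, and the brightest such probe set over the 6 arrays stood for each gene. This gave 29 of 22180 measured genes, namely 8 of the linker histone type H1, 6 of H2A, 8 of H2B, 7 of H4 and 0 of H3. In the RefSeq table of mouse assembly GRCm38.p6, 21 of them lie on chromosome 13 and 5 on chromosome 3, where the mouse histone gene clusters are, while H1f8 and H1f10 on chromosome 6 and H1f7 on chromosome 15 lie outside these clusters, so the set is not purely one of clustered genes. A further 38 probe sets carry the names of several genes, at least 1 of them such a histone, and are described separately without naming a gene.

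The 6 arrays are 3 of C2C12 cells transfected with an siRNA pool against Htt, the mouse huntingtin gene, and 3 of C2C12 cells transfected with scramble siRNA, and both groups were transfected. The labels call the treated group a knockout, but the treatment they describe is siRNA, so it is called Htt siRNA here. By its title the study asks about huntingtin and muscle differentiation in culture. Neither the culture stage nor the time between transfection and harvest is known here. The cells are of 1 line, grown in standard medium by the ATCC's protocol, and nothing says that the replicates were separate cultures, so p-values measure only the spread between these arrays, which may be technical.

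In dividing cells each round of DNA replication needs a matching supply of new histones: H2A, H2B, H3 and H4 form the nucleosome core and H1 binds the linker DNA between nucleosomes. The replication-dependent genes sit in clusters of many near-identical copies, are transcribed mainly in S phase, and make mRNAs that mostly end in a conserved stem-loop and not in a poly(A) tail; the stem-loop is bound by SLBP. When myoblasts leave the cell cycle to differentiate, the replication-dependent genes are normally turned down, whereas variants such as H1x (from H1f10) are made outside S phase.

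The stretch before the start of 5 genes is shown because the histone types differ there. H1f5, H2ac20 and H2bc12 had the largest fold change of the H1, H2A and H2B genes, H4c12 was the brightest H4 gene, and H1f10 is shown as a linker histone gene outside the clusters. Each is 150 bases long, ends at the base before the RefSeq start, reads 5′ to 3′ on the gene's strand and is credited to RefSeq, GRCm38.p6. Capitals mark 4 searched motifs on either strand. These were the CCAAT box, the TATA box written as TATAAA, the octamer known from H2B promoters written as ATTTGCAT, and the AC box known from H1 promoters written as AAACACA.
H1f5, chr13:21780626-21780775, minus strand: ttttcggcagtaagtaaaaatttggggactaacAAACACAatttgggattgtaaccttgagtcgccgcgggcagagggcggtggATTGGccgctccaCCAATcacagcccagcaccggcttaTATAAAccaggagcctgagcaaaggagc
H2ac20, chr3:96220881-96221030, minus strand: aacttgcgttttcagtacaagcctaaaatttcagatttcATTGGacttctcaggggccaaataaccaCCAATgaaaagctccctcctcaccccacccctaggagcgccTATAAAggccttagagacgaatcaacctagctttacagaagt
H2bc12, chr13:22035671-22035820, plus strand: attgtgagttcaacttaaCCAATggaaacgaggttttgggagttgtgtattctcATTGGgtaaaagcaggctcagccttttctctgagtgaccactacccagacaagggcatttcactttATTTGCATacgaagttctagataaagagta
H4c12, chr13:21750554-21750703, minus strand: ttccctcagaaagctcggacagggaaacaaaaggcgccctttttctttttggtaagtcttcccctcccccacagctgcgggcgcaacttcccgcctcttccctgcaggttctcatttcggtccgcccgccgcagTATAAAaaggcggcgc
H1f10, chr6:87981483-87981632, minus strand: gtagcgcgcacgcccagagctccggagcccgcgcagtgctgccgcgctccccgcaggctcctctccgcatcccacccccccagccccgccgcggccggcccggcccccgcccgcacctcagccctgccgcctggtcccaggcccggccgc

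Promoters were found for 27 of the 29 genes, and the 250 bases before the start were searched. CCAAT was present in 6 of 8 H1, 6 of 6 H2A, 7 of 7 H2B and 1 of 6 H4 promoters, against 34.5% of the 27025 genes in the table. TATAAA was present in 13 of 27 member promoters, against 3504 of the 27025 genes. These matches were counted at any position and on either strand, so not all need be TATA boxes. In H1f5 the match lay on the forward strand 28 to 23 bases before the start, in H2bc12 on the reverse strand at 198 to 193. The octamer was present in 3 of 6 H2A and 5 of 7 H2B promoters but in 0 of 8 H1 and 0 of 6 H4 promoters, against 1.61% of all. The AC box was present in 4 of 8 H1 promoters (H1f2, H1f3, H1f5 and H1f6), 1 of 6 H2A, 2 of 7 H2B and 0 of 6 H4, against 6.22% of all. The shown H1f10 stretch holds none of these 4 letter strings. H2bc12 and H2ac12 start 178 bases apart on opposite strands, and the testis histone genes H2bc1 and H2ac1 start 281 bases apart in the same way, so the members of each pair share part of the searched sequence. A match of letters is a description and no binding was measured.

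The values are deposited log2 expression values. A log2 fold change is the mean of the knockdown arrays minus that of the scramble arrays, given with the standard error (SE) of limma, a linear model that shares variance across genes, and adjusted p-values are Benjamini-Hochberg values over all 22180 genes from limma. Htt stood at 4.49, 4.47 and 4.65 in the knockdown arrays and at 5.59, 5.60 and 5.72 in the scramble arrays, so the groups did not overlap. Its log2 fold change was -1.10 ± 0.09 (adjusted p = 0.0559 in limma), just short of the threshold of 0.05. Over the alternatives the adjusted p ran from 0.00778, when knockdown replicate 2 was left out, to 0.348, when knockdown replicate 1 was, and with all 6 arrays Htt passed with genes above the median level alone (0.0326), array weights (0.0438), arrays centred on their medians (0.026), repeated quantile normalization (0.0465) and the stress covariate defined below (0.0244).

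Most histone genes with a clear signal had lower values with Htt siRNA. Of the 29 genes, 0 passed the adjusted threshold in limma, as did 0% of all genes; adjusted p-values of the members ran from 0.299 to 0.979. At an unadjusted limma p under 0.05, 14 of 29 (48.3%) were lower and 0 were higher, where 5.14% of all genes were lower and 5.72% higher. In 8 of 29 genes (27.6%) each knockdown array lay below each scramble array, against 5.91% of all genes, and in 1 each lay above, against 10.1%. The median log2 fold change was -0.23 over the members and 0.03 over all genes. These genes have near-identical sequences, so that probes assigned to 1 gene may also bind its paralogs, which was not tested, and they are transcribed together, so the count of 14 is not one of independent genes. It dropped to 7 when knockdown replicate 1 or scramble replicate 3 was left out, and to 8 when knockdown replicate 3 or scramble replicate 2 was. The number of all 22180 genes lower at that p dropped as well, from 1140 with all arrays. It was 687 without knockdown replicate 1, 783 without scramble replicate 3, 700 without knockdown replicate 3 and 821 without scramble replicate 2. With arrays centred on their medians, all genes split into 620 higher and 1893 lower at that p, instead of 1269 higher and 1140 lower, and 14 histone genes were again lower. In total RNA from a culture, fewer cells in S phase and less histone mRNA in each cell cannot be told apart.

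**Figure D1:**
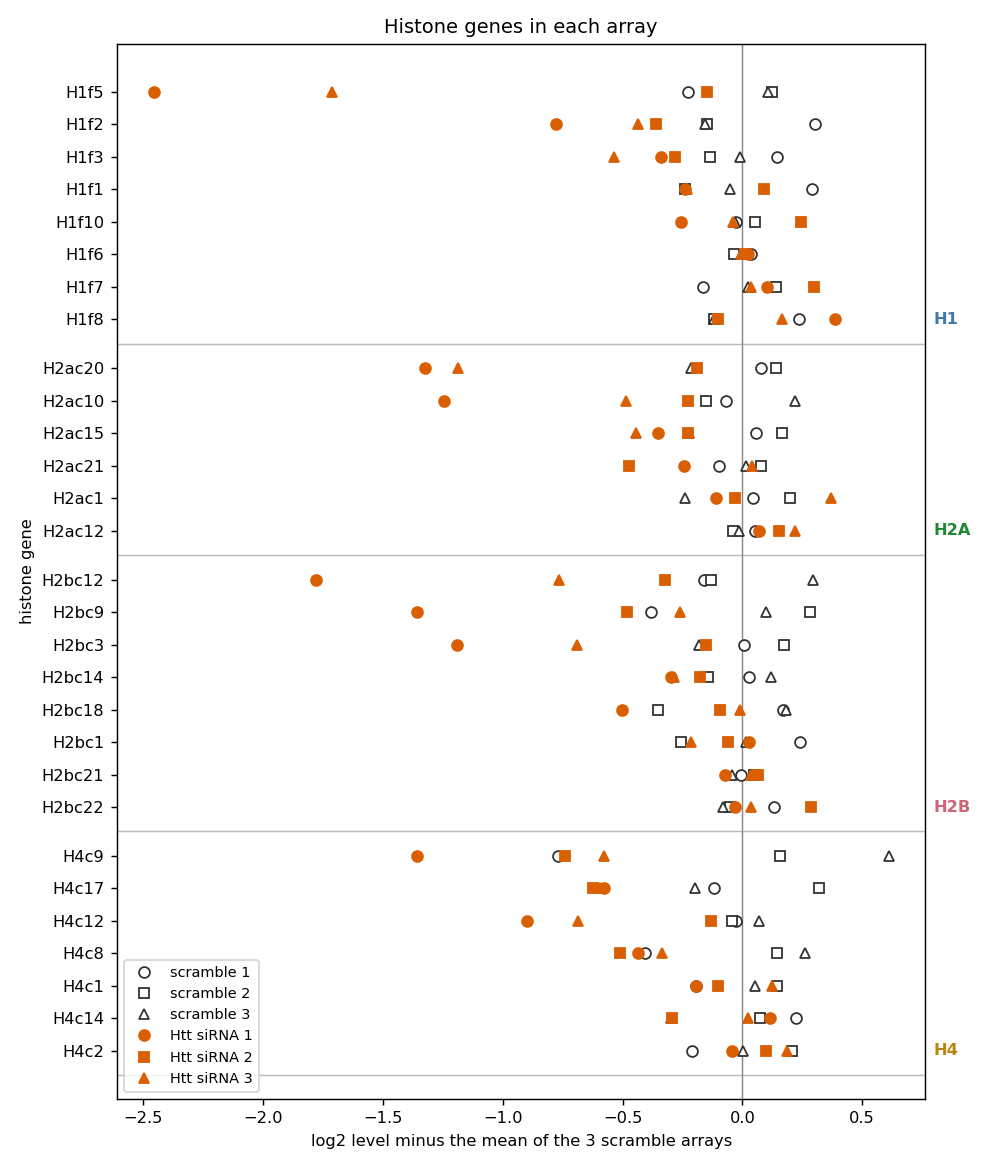
Each row is 1 of the 29 histone genes, grouped by type, and each point is 1 array (filled, Htt siRNA; open, scramble; the symbol gives the replicate); the x axis is the log2 level minus the mean of the 3 scramble arrays. In H1f5, Htt siRNA replicates 1 and 3 lie far to the left while replicate 2 lies among the scramble arrays, and in genes such as H4c17 all 3 knockdown arrays lie to the left.

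H1f5, encoding the somatic linker histone H1.5, had the largest difference of the 29 genes. Its log2 level was 4.29, 6.60 and 5.04 with Htt siRNA and 6.52, 6.87 and 6.85 with scramble, so replicates 1 and 3 of the knockdown were low and replicate 2 lay within the scramble range. The log2 fold change was -1.44 ± 0.50, a 2.71-fold lower mean (5.31 ± 1.18 against 6.75 ± 0.20, SD, n = 3; adjusted p = 0.4 in limma). H1f2, encoding H1.2, stood at 5.72, 6.14 and 6.06 against 6.80, 6.35 and 6.34, a log2 fold change of -0.52 ± 0.16 (adjusted p = 0.382 in limma) with no overlap. H1f3, encoding H1.3, stood at 3.40, 3.46 and 3.20 against 3.88, 3.60 and 3.73 and also did not overlap (-0.38 ± 0.11, adjusted p = 0.359 in limma). For both, the gap was present in all 3 knockdown arrays.

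H1f10, the replication-independent linker histone, overlapped between groups. It stood at 5.23, 5.73 and 5.45 with Htt siRNA and 5.46, 5.54 and 5.46 with scramble (-0.02 ± 0.13, adjusted p = 0.975 in limma), and its sign turned under repeated quantile normalization (0.032) and with the stress covariate (0.042). Of the other H1 genes, H1f1 (H1.1) had a value of -0.13 ± 0.16, the testis gene H1f6 0.01 ± 0.08, the spermatid gene H1f7 0.15 ± 0.11 and the oocyte gene H1f8 0.15 ± 0.15. All 4 lay below the level of the median gene, 2.95 on the log2 scale. In all, 3 of 8 H1 genes were lower at an unadjusted limma p under 0.05 and 0 were higher, against 5.14% and 5.72% of all genes. The H1 median was -0.07 and lay at -0.0056 without scramble replicate 1 and at -0.19 without Htt siRNA replicate 2. It moved by over 1.5 times also without knockdown replicate 1 (-0.034), knockdown replicate 3 (-0.041) and scramble replicate 2 (-0.13). Centring each array on its median gave -0.13 as well.

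Of the 6 H2A genes, 3 were lower at an unadjusted limma p under 0.05 and 0 were higher, against 5.14% and 5.72% of all genes. The H2A median was -0.28. H2ac20, on chromosome 3, stood at 5.71, 6.84 and 5.85 with Htt siRNA against 7.11, 7.17 and 6.82 with scramble, where again only knockdown replicate 2 reached the scramble range. Its log2 fold change was -0.90 ± 0.28 (1.87-fold lower; 6.13 ± 0.62 against 7.03 ± 0.19, SD, n = 3; adjusted p = 0.382 in limma). H2ac10 stood at 8.06, 9.08 and 8.82 against 9.24, 9.16 and 9.53 and did not overlap (-0.65 ± 0.25, adjusted p = 0.421 in limma). In these 2 genes replicate 1 was the lowest knockdown array. H2ac15 stood at 1.67, 1.80 and 1.58 against 2.08, 2.19 and 1.80 and, before rounding, did not overlap either (-0.34 ± 0.12), but its mean of 1.85 was far below the median gene. H2ac12, the partner of H2bc12, was dimmer still with a mean of 1.51, and its 3 knockdown arrays were higher than its scramble arrays (0.15 ± 0.08, adjusted p = 0.567 in limma). H2ac21 had a value of -0.23 ± 0.14 and the testis gene H2ac1 one of 0.08 ± 0.16.

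Of the 8 H2B genes, 4 were lower at an unadjusted limma p under 0.05 and 0 were higher, against 5.14% and 5.72% of all genes. The H2B median was -0.23 (-0.35 without scramble replicate 2). H2bc12 stood at 4.52, 5.97 and 5.53 with Htt siRNA and at 6.13, 6.16 and 6.59 with scramble, with no overlap although replicate 2 came close. The difference was 1.94-fold (-0.96 ± 0.34; 5.34 ± 0.75 against 6.29 ± 0.26, SD, n = 3; adjusted p = 0.403 in limma). H2bc3 stood at 6.05, 7.09 and 6.55 against 7.25, 7.42 and 7.06, so replicate 2 again entered the scramble range (-0.68 ± 0.24, adjusted p = 0.404 in limma). H2bc14 stood at 4.30, 4.42 and 4.32 against 4.63, 4.46 and 4.72, a small gap without overlap (-0.25 ± 0.10). H2bc9, below the median gene, stood at 1.65, 2.53 and 2.75 against 2.63, 3.29 and 3.11, where knockdown replicate 3 entered the scramble range (-0.70 ± 0.29). Of the remaining 4, H2bc18 had a value of -0.20 ± 0.18, the testis gene H2bc1 -0.08 ± 0.14, H2bc22 0.10 ± 0.11 and H2bc21 0.01 ± 0.08, and all 4 overlapped. The sign of H2bc21 turned with arrays centred on their medians (-0.053).

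The 7 H4 genes encode the same type of core histone from different loci. Of these, 4 were lower at an unadjusted limma p under 0.05 and 0 were higher, against 5.14% and 5.72% of all genes. The H4 median was -0.43. H4c12 stood at 7.47, 8.24 and 7.68 against 8.34, 8.33 and 8.44, so all 3 knockdown arrays lay below the narrow scramble range (-0.57 ± 0.18; 7.80 ± 0.40 against 8.37 ± 0.06, SD, n = 3; adjusted p = 0.387 in limma). H4c17 had the smallest p of the 29 genes. It stood at 1.85, 1.80 and 1.83 against 2.30, 2.74 and 2.22 (-0.60 ± 0.14, adjusted p = 0.299 in limma), with knockdown replicate 2 as low as the others but a level below the median gene. H4c9 stood at 2.68, 3.29 and 3.46 against 3.27, 4.19 and 4.65, with scramble replicate 1 down in the knockdown range (-0.89 ± 0.35, 1.86-fold, adjusted p = 0.429 in limma). H4c8 stood at 3.79, 3.71 and 3.88 against 3.81, 4.36 and 4.48, again with scramble replicate 1 in the knockdown range (-0.43 ± 0.17). H4c1 (-0.06 ± 0.12), H4c2 (0.08 ± 0.12) and H4c14 (-0.05 ± 0.16) did not differ beyond their spread, and the sign of H4c14 turned under repeated quantile normalization (0.010). The medians of the 4 types were not tested against each other.

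Genes were next divided by their level on the array. Of the 15 histone genes above the median gene, 15 had negative fold changes and 11 were lower at an unadjusted limma p under 0.05. Among all 11090 genes above it, 5823 had negative fold changes and 9.22% were lower at that p. In 6 of these 15 the groups did not overlap, with the knockdown lower, against 9.04% of such genes, and their median was -0.52 (-0.01 over all such genes). Of the 14 histone genes at or below the median gene, 6 had negative and 8 positive fold changes, against 3438 negative and 7652 positive among all 11090 such genes. At that p, 3 of the 14 (21.4%) were lower, against 1.06% of all genes at or below the median gene. The median of the 14 was 0.01 (0.05 over all such genes). Differences of weak signals are compressed in these values, so a small value there does not show an equal mRNA level. On chromosome 13, 13 of 21 genes were lower at an unadjusted limma p under 0.05, on chromosome 3 it was 1 of 5, and of the 3 genes outside the clusters 0. Over all genes this share was 5.14%. The difference between the chromosomes was not tested, and the level of the genes was not taken into account.

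**Figure D2:**
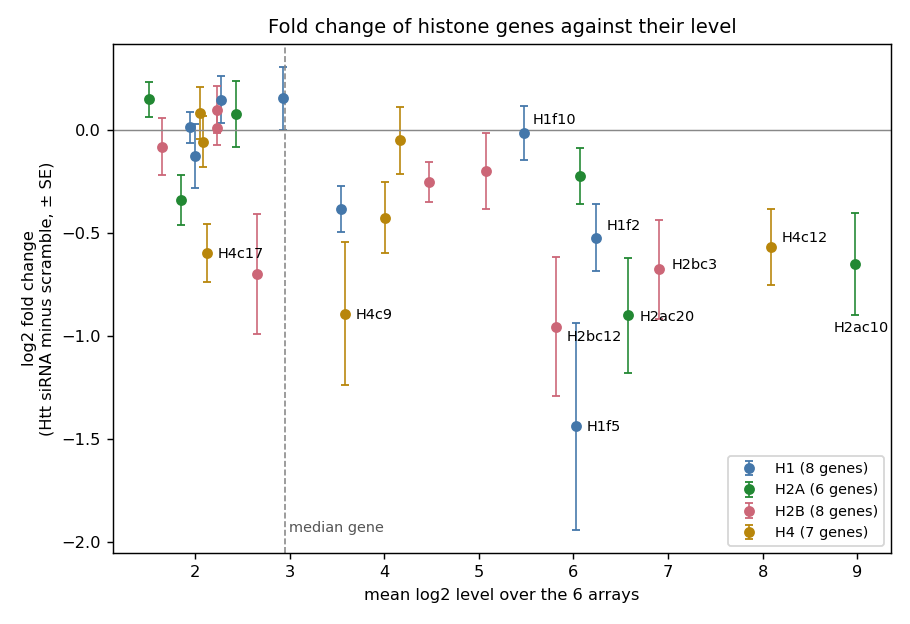
Each point is 1 histone gene, coloured by type, with its log2 fold change (Htt siRNA minus scramble, y axis, bars ± SE) against its mean log2 level over the 6 arrays (x axis); the dashed line marks the median gene at 2.95. All 15 genes to the right of the line lie below 0, with H1f10 closest to it at -0.02, and those to the left scatter around 0 except H4c17, H2bc9 and H2ac15.

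The 3 knockdown arrays were unequal. Across the 14 genes lower at an unadjusted limma p under 0.05, the median difference from the scramble mean was -1.04 in Htt siRNA replicate 1, -0.25 in replicate 2 and -0.56 in replicate 3, and replicate 2 was the highest of the knockdown arrays in 10 of 14. Over all 29 members the medians were closer together, at -0.30, -0.15 and -0.23, and replicate 2 was the highest in 15 of 29, against 7916 of all 22180 genes. By type it was the highest in 6 of 8 H1, 3 of 6 H2A and 5 of 8 H2B genes but in 1 of 7 H4 genes. Among the DNA replication genes described below it was the highest in 23 of 23. Without Htt siRNA replicate 2, 540 genes passed the adjusted limma threshold, 423 of them lower, which is 1.91% of all genes. Among them were 4 histone genes, all lower: H1f5 (-2.08 ± 0.22, adjusted p = 0.00807), H2ac20 (-1.26 ± 0.13, adjusted p = 0.00807), H4c12 (-0.79 ± 0.11, adjusted p = 0.018) and H2bc3 (-0.94 ± 0.17, adjusted p = 0.0413). Since replicate 2 is the array nearest the scramble arrays in these genes, its removal widens these differences, and the result with all 6 arrays stays 0 called. Htt itself was as low in replicate 2 (4.47) as in replicate 1 (4.49).

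The mean level of the 15 histone genes above the median gene was 5.08, 5.69 and 5.43 with Htt siRNA and 5.89, 5.93 and 6.01 with scramble, so each knockdown array lay below each scramble array. For the 23 measured DNA replication genes it was 5.23, 6.50 and 5.53 against 6.32, 6.90 and 6.67, and replicate 2 of the knockdown lay above scramble replicate 1. A list of 13 unfolded protein and integrated stress response genes ordered the arrays nearly in reverse of the DNA replication genes. Its mean level was 8.35, 6.34 and 8.39 with Htt siRNA and 8.32, 6.41 and 6.94 with scramble, so knockdown replicate 2 was the lowest array. How these orders are linked was not tested. Of the 13 genes, Hyou1, Creld2, Manf and Sdf2l1 had values from 0.38 ± 0.32 (Manf) to 1.02 ± 0.87 (Sdf2l1). All 13 had positive fold changes (median 0.45), against 12919 of all 22180 genes, and 0 of 13 had an unadjusted limma p under 0.05. With the mean level of this list as a covariate in limma, the stress covariate, 14 of 29 histone genes were lower at an unadjusted p under 0.05 and 1, H1f7, was higher. Of all 22180 genes, 1392 were lower and 1372 higher at that p. The adjusted threshold was passed by 44 genes, 0 of them histone genes.

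**Figure D3:**
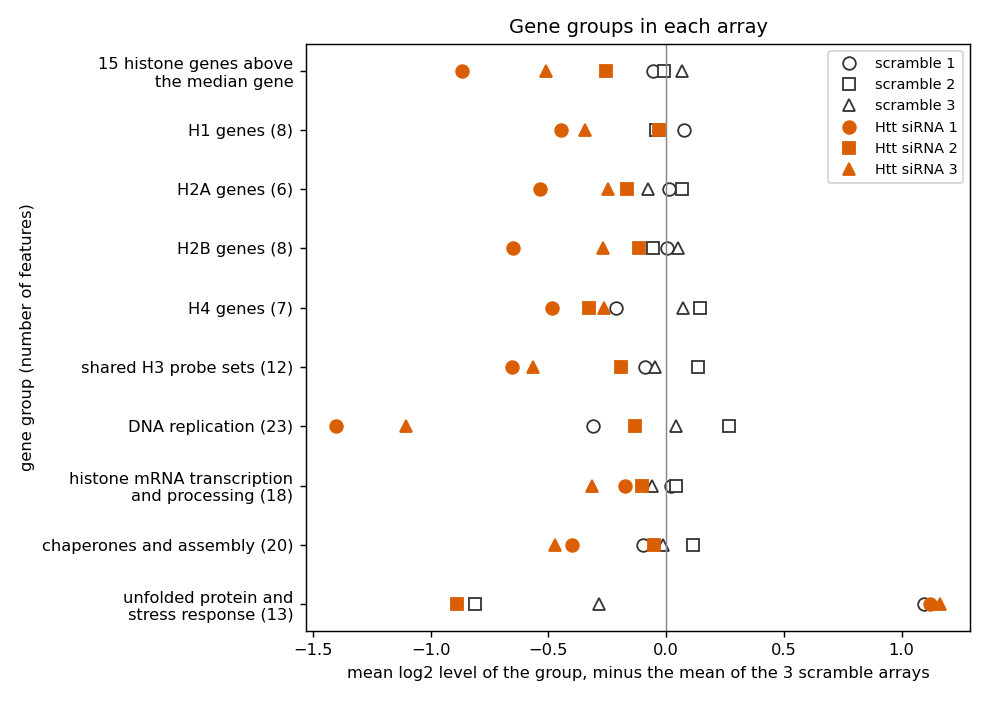
Each row is a gene group with its number of features, and each point is 1 array (filled, Htt siRNA; open, scramble); the x axis is the mean log2 level of the group minus the mean of the 3 scramble arrays. For the 15 histone genes above the median gene the filled points lie at -0.87, -0.26 and -0.51 (replicates 1, 2 and 3), left of all open points, while for DNA replication replicate 2 lies at -0.13, between scramble arrays.

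Other genes of the pathway are given as counts, to be read against 5.14% of all genes, and 9.22% of genes above the median gene, that were lower. Of 23 DNA replication genes, 18 were lower at an unadjusted limma p under 0.05 and 0 higher (median -0.90) (a list written with results of these data known). Examples are the licensing factor Cdc6 (-1.29 ± 0.33), the polymerase subunits Pole (-1.07 ± 0.31, or -0.54 with the mean of all its probe sets) and Pold1 (-0.76 ± 0.20), and the helicase subunit Mcm6 (-1.07 ± 0.32). Of 18 genes for histone transcription and mRNA processing, 6 were lower and 0 higher at that p, with a median of -0.12. Slbp, whose protein binds the histone stem-loop, stood at 6.04, 6.90 and 6.10 against 6.76, 7.43 and 7.11, so knockdown replicate 2 overlapped (-0.76 ± 0.25, adjusted p = 0.397 in limma). Srrt, encoding the cap-binding partner ARS2, had a value of -0.45 ± 0.13, Upf1, a helicase used in histone mRNA decay, -0.34 ± 0.12, and the cleavage factor Cstf2 -0.30 ± 0.08. Cstf2 averaged 4.99 ± 0.03 against 5.29 ± 0.01 (SD, n = 3), with all 3 knockdown arrays low.

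Of 20 histone chaperone and nucleosome assembly genes, 6 were lower and 0 higher at an unadjusted limma p under 0.05, with a median of -0.19. The subunits of chromatin assembly factor 1, Chaf1a (-1.05 ± 0.38) and Chaf1b (-0.90 ± 0.30), and Hat1, which acetylates new H4 (-0.73 ± 0.28), were among the 4 with the smallest p, as was Daxx, a chaperone of H3.3 (-0.28 ± 0.09). Of 7 measured genes on a list of core histone variants, 2 were lower and 0 higher at that p, with a median of -0.13. H2ax, the variant phosphorylated at DNA breaks, stood at 6.47, 7.61 and 7.01 against 7.58, 8.08 and 7.68, with knockdown replicate 2 in the scramble range (-0.75 ± 0.27). The other was Cenpa, the centromeric H3 (-0.71 ± 0.30). H2az1 had a value of -0.33 ± 0.16 and Macroh2a1 one of -0.13 ± 0.08. With all 6 arrays and group as the only term, 0 of the genes in these lists passed the adjusted threshold in limma, and of those named here Cdc6 passed it with the stress covariate (-1.05, adjusted p = 0.0244). Without Htt siRNA replicate 2, Slbp, Srrt, Chaf1a, Chaf1b, Hat1, H2ax, Cdc6, Pold1, Pole and Mcm6 passed it, with values from -0.60 (Srrt, adjusted p = 0.0316 in limma) to -1.62 (Cdc6, adjusted p = 0.0313 in limma).

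H3 was measured here through probe sets shared by several histone genes, and such sets were also there for the other types. Of 38 such probe sets, 35 were distinct in value, and they were fitted with limma among all 41345 probe sets. There, 18 of 35 (51.4%) were lower at an unadjusted p under 0.05 and 0 higher, against 4.56% of all probe sets lower; in 16 of 35 (45.7%) the knockdown arrays lay below the scramble arrays, against 6.0%. Adjusted p-values in limma ran from 0.388 to 0.967. The probes may detect any mix of the listed genes, several sets list the same genes, and how far they count the same mRNA was not tested, so these sets are neither independent of each other nor of the single genes.

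For H3, 10 of 12 shared probe sets had negative fold changes, against 18203 of all 41345 probe sets. At an unadjusted limma p under 0.05, 4 of the 12 were lower, against 4.56% of all probe sets. The median of the 12 H3 sets was -0.41. Their mean levels ran from 1.92 to 7.25, and most lay below 2.95, the level of the median gene. The brightest H3 set, 17400555, had a value of -0.29 ± 0.13 with overlap. Probe set 17408015, listing 8 H3 genes, stood at 2.85, 3.65 and 3.39 with Htt siRNA and 4.23, 4.26 and 4.52 with scramble (-1.04 ± 0.21, adjusted p = 0.388 in limma). Probe set 17291183, also listing 8, stood at 3.55, 4.39 and 3.41 against 4.73, 5.31 and 4.76 (-1.15 ± 0.29, adjusted p = 0.437 in limma). In both, all 3 knockdown arrays were low. The largest difference of all shared sets was in H2A set 17291057, listing 10 genes, at 2.95, 4.92 and 3.55 against 5.19, 5.45 and 5.89 (-1.70 ± 0.48, 3.25-fold). H2B set 17285851, listing 3 genes, went the other way, at 7.89, 7.64 and 7.83 against 7.65, 7.09 and 7.73 with overlap (0.30 ± 0.18). Among bright sets, H2A set 17285867 stood at 6.83, 8.65 and 7.24 against 8.79, 8.90 and 8.60, with knockdown replicate 2 in the scramble range (-1.19 ± 0.44). H2B set 17290997, listing 4 genes, stood at 9.03, 9.98 and 9.60 against 10.25, 10.30 and 10.30 without overlap. The brightest set of all, H2A set 17400545 (mean level 10.78), had a smaller value of -0.20 ± 0.11. H2A set 17285703 (10.01) had -0.30 ± 0.14 with overlap. The mixed H2B and H4 set 17285691 (10.23) had -0.58 ± 0.22 and H2A set 17291012 (9.39) -0.70 ± 0.29. H4 set 17291019, listing 13 genes, stood at 3.14, 3.67 and 4.44 against 4.62, 5.03 and 5.07 (-1.16 ± 0.32), also without overlap. Replicate 2 was the highest knockdown array in 11 of the 12 H3 sets and in 25 of all 35 shared sets, against 14751 of 41345 probe sets. The sets named here were chosen after their values were seen.

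**Figure D4:**
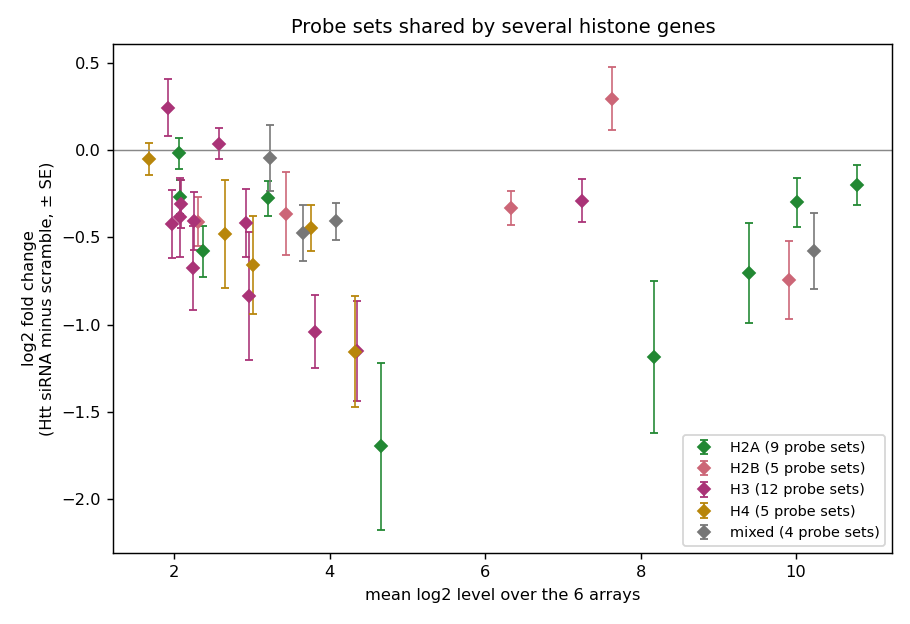
Each diamond is 1 of the 35 distinct shared probe sets, coloured by histone type (mixed, symbols of several types), with its log2 fold change (Htt siRNA minus scramble, y axis, bars ± SE) against its mean log2 level (x axis). The sets lie below 0 apart from 2 of H3 and 1 of H2B, the last at a level of 7.64.

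Myoblast markers were present in both groups. Of the 6 measured, 4 had each knockdown array above each scramble array, against 10.1% of all genes: Myod1, the myogenic transcription factor (0.66 ± 0.27), the cadherin gene Cdh15 (0.41 ± 0.17), the integrin gene Itga7 (0.26 ± 0.13) and the desmin gene Des (0.20 ± 0.10). Of these, Myod1 and Cdh15 were higher at an unadjusted limma p under 0.05 (5.72% of all genes were), and 0 of 6 passed the adjusted threshold. Myf5 (0.40 ± 0.35) and the vimentin gene Vim (-0.05 ± 0.09) overlapped. The part of this difference in the histone values was not tested.

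The 8 measured markers of other cell types had mean levels of 2.58 to 2.70 per array. Single markers above the median gene were Cd68 of macrophages at a mean of 4.10, Rbfox3 of neurons at 3.47 and Epcam of epithelia at 3.06. Cd68 was lower with Htt siRNA without overlap (-0.39 ± 0.14, adjusted p = 0.413 in limma), while the leukocyte marker Ptprc stood at 2.12 and the macrophage marker Adgre1 at 1.96. Epcam (-0.08 ± 0.09), Cdh5 (0.07 ± 0.11), Adipoq (0.06 ± 0.11) and Rbfox3 (0.08 ± 0.16) overlapped.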

How the data were processed

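Total RNA of 6 C2C12 samples (3 Htt siRNA, 3 scramble) was measured on 1-colour Affymetrix arrays. The authors deposited log2 values for 41345 probe sets, made with RMA and the affy package per the submitters' processing notes, without versions; quantile normalization in RMA removes any change in total RNA per cell. Labelling used an IVT kit, per the labels' protocols; its priming, which matters for mRNAs without a poly(A) tail, is not stated, and its part was not tested. The values have no detection calls, and the number of arrays limits the precision; arrays correlated with r from 0.981 to 0.991.

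Of the probe sets, 23521 had 1 gene symbol, 1814 several and 16010 none in the platform annotation, and 22180 genes were represented by their brightest probe set. All 29 members matched the RefSeq table by Entrez identifier. Limma 3.58.1 in R 4.3.3 (lmFit, eBayes, two-sided) was fitted to all genes with group as the only term, and was tested on simulated data. Named genes were, per histone type, the 3 with the smallest p, the brightest and the largest positive value, all H1f genes, and the 4 with the smallest p of each other list; the remaining members are given to account for every gene. The members and lists were chosen with earlier results of these data known. The planned median for H3 had no gene to be computed from. Tables and plots used Python 3.11.15, pandas 2.3.3 and matplotlib 3.10.9.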

Additional observations from a re-analysis of the deposited data

How the results depend on the processing

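Leaving out each array in turn gave 0 to 540 called genes and 0 to 4 called histone genes. At an unadjusted limma p under 0.05, 7 to 13 histone genes were lower, as were 687 to 1720 of all 22180 genes. H4 medians ran from -0.58 to -0.30 (-0.58 without scramble replicate 1). The number of genes called was 3 above the median level, 3 with arrays centred on their medians, 3 with repeated quantile normalization, 1 with array weights, 2 with the eBayes trend, 44 with the stress covariate and 1 with all probe sets fitted separately, an alternative chosen after seeing the data; none of these settings called a histone gene. The same replicate numbers of the groups correlated at 0.35, 0.36 and 0.01 in their deviations, Htt siRNA replicate 3 correlated best with scramble replicate 1, and the numbers were not treated as pairs; with the replicate block 98 genes were called in limma, 0 of them histone members, among them Htt (adjusted p = 0.0128), Cdc6 (adjusted p = 0.0234) and Chaf1a (adjusted p = 0.042). Leaving out single arrays gave medians of -0.19 to -0.0056 for H1 and -0.35 to -0.15 for H2B. Centring changed all genes at an unadjusted p under 0.05 from 1269 higher and 1140 lower to 620 higher and 1893 lower. Above the median level the medians were -0.52 (all types), -0.45 (H1), -0.65 (H2A) and -0.47 (H2B), because the dim genes are left out. Adding 28 shared probe sets gave 32 of 57 histone features lower at an unadjusted limma p under 0.05, against 1158 of all 22208 features, and a median of -0.36. Further, 1 member was higher at an unadjusted p under 0.05 with the eBayes trend (1, H2ac12) and with the stress covariate (1, H1f7).

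Signs turned only in genes with small values. These were H4c14 (0.045 with array weights, 0.010 with repeated quantile normalization), H1f6 (-0.052 centred, -0.031 with repeated quantile normalization), H2bc21 (-0.053 and -0.052 in the same settings) and H1f10 (0.032 with repeated quantile normalization, 0.042 with the stress covariate). Leaving out single arrays gave ranges of -0.15 to 0.10 for H1f10, -0.16 to 0.014 for H4c1, -0.020 to 0.050 for H2bc21, -0.20 to 0.070 for H4c14, -0.071 to 0.17 for H2ac1, -0.025 to 0.18 for H4c2, -0.25 to 0.018 for H1f1, -0.21 to 0.039 for H2bc1, -0.0079 to 0.028 for H1f6, -0.011 to 0.11 for Adipoq and -0.015 to 0.13 for Cdh5.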
